A study of Mus musculus with 4 samples.

Results

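Pdyn, Osbpl5, Rpp25, Ablim1, Mpzl2 and Appl2 are 6 genes that had 2 to 23 reads per library in control erythroid progenitors of the mouse fetal liver and 237 to 1126 reads per library in Rcor1 mutant progenitors. They were chosen by symbol as genes near-silent in both control libraries and over 30-fold higher in both mutant libraries. All 6 were in the count table, which had 35927 usable gene rows, and all 6 were among the 13140 genes tested. Their difference between the groups is what chose them, so it is given here as a description and without a p-value. The genes were also described as derepressed and as having no erythroid role; counts show neither a release from repression nor a role, and both words are left aside.

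The cells were sorted from livers of C57BL/6 embryos at embryonic day 13.5 (E13.5) as CD71+ and TER119-, a gate for red cell progenitors that carry the transferrin receptor but not yet a marker of later erythroid cells. The control group joined Rcor1+/+ and Rcor1+/- embryos, so a share of its cells, which the labels do not give, came from heterozygotes. The mutant group was Rcor1-/-. Each group had 2 mRNA sequencing libraries, called biological replicates in the labels, and the RNA in a library came from several pooled livers, so single animals cannot be told apart.

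Rcor1 encodes CoREST, a scaffold that holds a histone demethylase and histone deacetylases together. The complex is brought to DNA by factors such as REST, which keeps neuronal genes off in other tissues, and GFI1B, a transcriptional repressor that acts within the erythroid and megakaryocyte lineages. The 6 genes encode proteins of unlike kinds: a neuropeptide precursor (Pdyn), a lipid transfer protein (Osbpl5), a subunit of an RNA-processing enzyme (Rpp25), an actin-binding protein (Ablim1), a cell adhesion molecule (Mpzl2) and an endosomal adaptor (Appl2).

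The promoters are shown so that the letters before the starts of the 6 genes, all picked as far higher in the mutants, can be compared. RefSeq windows (GRCm38.p6) were found for 5 of the 6 genes; Mpzl2 is named only. Each line is the 250 bases before the most upstream start that RefSeq lists, written 5′ to 3′ on the gene's own strand, and capitals mark the 6 letters of a GATA word (AGATAA or TGATAA) or of a word from the GFI1 family site (AAATCA), searched on both strands. The windows lie at chr2:129699939-129700188 (minus strand), chr7:143757009-143757258 (minus), chr9:57503852-57504101 (plus), chr19:57314920-57315169 (minus) and chr10:83648665-83648914 (minus). The gene positions given further on are from GENCODE, whose starts differ: by them the last 76 bases of the Rpp25 line and the last 74 of the Appl2 line lie inside the gene.
Pdyn promoter: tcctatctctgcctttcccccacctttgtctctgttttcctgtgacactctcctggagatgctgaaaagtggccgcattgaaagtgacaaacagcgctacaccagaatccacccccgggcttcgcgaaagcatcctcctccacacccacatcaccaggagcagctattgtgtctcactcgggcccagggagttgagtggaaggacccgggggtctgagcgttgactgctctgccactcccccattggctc
Osbpl5 promoter: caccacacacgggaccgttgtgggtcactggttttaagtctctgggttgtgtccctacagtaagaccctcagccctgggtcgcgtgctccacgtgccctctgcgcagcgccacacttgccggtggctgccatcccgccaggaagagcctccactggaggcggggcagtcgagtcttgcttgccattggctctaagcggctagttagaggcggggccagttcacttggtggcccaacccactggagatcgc
Rpp25 promoter: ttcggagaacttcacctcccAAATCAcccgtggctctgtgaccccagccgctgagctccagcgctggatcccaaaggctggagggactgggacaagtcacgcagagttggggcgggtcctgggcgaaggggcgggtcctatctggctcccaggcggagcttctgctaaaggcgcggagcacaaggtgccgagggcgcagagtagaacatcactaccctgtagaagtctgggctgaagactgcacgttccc
Ablim1 promoter: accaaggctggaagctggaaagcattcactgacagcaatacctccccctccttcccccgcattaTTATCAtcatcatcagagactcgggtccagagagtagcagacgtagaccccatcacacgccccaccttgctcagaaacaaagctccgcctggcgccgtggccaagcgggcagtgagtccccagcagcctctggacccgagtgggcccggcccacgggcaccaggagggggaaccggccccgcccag
Appl2 promoter: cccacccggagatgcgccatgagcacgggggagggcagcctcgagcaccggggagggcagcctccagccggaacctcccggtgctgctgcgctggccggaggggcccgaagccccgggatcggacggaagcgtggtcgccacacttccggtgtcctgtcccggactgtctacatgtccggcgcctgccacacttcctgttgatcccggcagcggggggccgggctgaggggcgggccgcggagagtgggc
The Rpp25 window held 1 GFI1 family word, which began 230 bases before the RefSeq start, and the Ablim1 window held 1 GATA word, which began 186 bases before it. Other forms of the GATA and GFI1 family sites were not searched. Among the windows of the same length of 27025 RefSeq genes, 12.7% held the first word and 16.9% held a GATA word. No line held either of 2 words from the REST site, TTCAGCACC (in 0.292% of all windows) and GGACAGCGC (in 0.326%). The 5 windows were rich in G and C, from 57.2% in Pdyn to 73.6% in Appl2 against a median of 52.0%, and held 8 (Pdyn), 14 (Osbpl5), 14 (Rpp25), 13 (Ablim1) and 25 (Appl2) CG pairs against a median of 6. The counts are per gene and do not show which start was used; 2 starts were listed for Pdyn, 3 for Osbpl5 and 5 for Ablim1. A matching word is not evidence of binding, and its absence from this window says nothing of the factor.

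Total counts were 26892375 and 22817080 in the controls, against 25186819 and 15053229 in the mutants. Rcor1 itself had 4083 and 3807 counts in controls against 2061 and 1240 in mutants; the counts do not show which exons these reads cover. Levels below are in CPM, counts per 1000000 after each library's total was corrected by its TMM factor, with the SD over n = 2 libraries, and tests are edgeR's quasi-likelihood test over all 13140 genes with Benjamini-Hochberg adjustment at 0.05. In that test 57.5% of genes passed, 28.3% higher and 29.2% lower in the mutant, so a call on its own is common here. TMM put the median log2 fold change at 0.01 and called 3723 genes higher and 3835 lower. Library totals alone put the median at 0.15 and called 5112 and 2553, and upper quartile scaling put it at 0.09 and called 4423 and 3088, so small changes below hold on the TMM scale. The labels name no separate litters, and p-values measure the spread between these pools.

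The sorted cells held erythroid progenitor transcripts: the 10 markers, among them Tfrc, Klf1 and Gata1, summed to 6820 and 6840 CPM in controls and 4893 and 4723 CPM in mutants, with 9 of 10 tested lower. Markers of other cells differed between the groups too. Megakaryocyte markers summed to 127 and 122 CPM in controls and 312 and 310 CPM in mutants (8 of 10 tested higher, 1 lower). Hepatoblast markers went from 905 and 896 to 1238 and 1248 CPM (7 of 9 tested higher), neutrophil markers from 57.4 and 61.5 to 141 and 146 CPM (5 of 10 tested higher, 1 lower) and mesenchymal markers from 8.36 and 8.34 to 27.0 and 24.7 CPM (8 of 10 tested higher). Endothelial markers went from 164 and 162 to 172 and 170 CPM (4 of 9 tested higher), a sum carried by Egfl7, and without Egfl7 from 12.8 and 12.2 to 31.1 and 30.9 CPM. Macrophage markers went from 18.3 and 18.6 to 26.0 and 26.0 CPM (2 of 9 tested higher, Cd163 at 0 in every library). Mast cell and basophil markers went from 6.64 and 6.05 to 24.0 and 25.2 CPM (3 of 3 tested higher, Tpsab1 and Mcpt4 at 0 in every library and Mcpt8 in the mutants). Lymphoid markers went from 1.02 and 1.42 to 5.96 and 5.47 CPM (2 of 2 tested higher, Igll1 at 0 in the mutants). Without Cd79b the lymphoid sum went from 0.625 and 0.733 to 1.59 and 1.72 CPM. In the mast cell and lymphoid lists 7 and 8 markers were too scarce to test. Markers scarce in controls were tested only where the mutants expressed them, so these counts can lean upward. Neuronal markers were near the floor in all libraries, at 1.13 and 1.19 CPM in controls and 1.59 and 1.65 CPM in mutants. Of 9 only Tubb3 could be tested by edgeR, and it did not pass (adjusted p = 0.0795). Snap25 and Nefl were at 0 in every library and Elavl4 and Syt1 in the mutants. The part of any of these cells in the levels of the 6 genes was not tested. In such bulk libraries a change in the number of cells that carry a transcript and a change in its amount per cell cannot be told apart.

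Pdyn encodes prodynorphin, which is cut into the dynorphins, peptide ligands of the kappa opioid receptor best known from the brain and spinal cord. It had 4 and 2 counts in controls against 442 and 237 in mutants. Both mutant libraries were far above both controls, at 16.7 and 15.1 CPM against 0.156 and 0.0917 CPM. The fitted log2 fold change of mutant over control was 6.92 ± 0.25 (SE), and the ratio of the summed levels was 127 with a 95% counting interval from 58.1 to 347, wide because only 6 control reads stand under it. Here and below, SE is the log2 fold change divided by the square root of the test's F value, not an error taken from the fitted model. For each of the 6 genes it is too narrow, since the counting interval, which covers counting error only, is wider. Of the 6 genes Pdyn had the fewest reads in every library. On GRCm38 it lies at chr2:129686565-129699844 on the minus strand, and its annotated exons cover 2887 bases.

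The opioid system around Pdyn was almost silent in all 4 libraries. Of 12 other genes for opioid precursors, receptors and peptide processing, 1 was expressed highly enough to test. That was Pomc, the precursor of beta-endorphin and the melanocortins, with 12 and 19 counts in controls against 22 and 15 in mutants (log2 fold change 0.42 ± 0.38, edgeR adjusted p = 0.37). The kappa receptor gene Oprk1, which encodes the receptor of the dynorphins, had no count in any library, as had the delta receptor gene Oprd1 and the prohormone convertase gene Pcsk1. A count of 0 allows up to 3 counts, or 0.117 and 0.137 CPM in the controls and 0.113 and 0.191 CPM in the mutants, by counting error alone. Pcsk2, the convertase gene best known for cutting prodynorphin, had 0 and 0 counts in controls against 1 and 3 in mutants, and Cpe, which encodes the carboxypeptidase that trims such peptides, had 2 and 4 against 6 and 2. The enkephalin precursor gene Penk had 1 and 1 counts in controls against 1 and 4 in mutants. The nociceptin receptor gene Oprl1 had 0 and 1 against 3 and 9 counts, too few to test.

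Osbpl5 encodes ORP5, a protein anchored in the endoplasmic reticulum that carries phosphatidylserine to the plasma membrane in exchange for a phosphoinositide. It had 5 and 7 counts in controls against 833 and 477 in mutants. The mutant libraries agreed closely, at 31.4 and 30.3 CPM, and lay above both controls, at 0.195 and 0.321 CPM. The log2 fold change was 6.90 ± 0.18 (SE), with a ratio of 123 (95% counting interval 69.9 to 238). The gene lies at chr7:143688762-143756985 on the minus strand (GRCm38), with exons over 4915 bases.

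On the TMM scale no tested relative of Osbpl5 passed as higher. Of 13 other family genes and membrane partners 11 were tested, 0 were higher, 4 were lower and 7 did not pass in edgeR's test. Among all genes tested, 28.3% were higher and 29.2% were lower. The median log2 fold change of the 11 was -0.10 against 0.01 over all genes. The untested Osbp2 had 1 and 2 counts in controls against 5 and 7 in mutants, and Osbpl6 had 4 and 0 against 6 and 4. None of the 11 was higher at an unadjusted p under 0.05, with DESeq2 or with limma-voom either (0 each). The closest paralog of Osbpl5 is Osbpl8, which encodes the other ORP of the contacts between endoplasmic reticulum and plasma membrane. It had 57.4 ± 8.30 CPM in controls and 62.1 ± 4.47 CPM in mutants (0.11 ± 0.09, adjusted p = 0.329); it passed as higher under library total scaling and without control replicate 2 (adjusted p = 0.0373 and 0.00405). The 4 falls were those of the founding member Osbp (-0.25, adjusted p = 0.000258), Osbpl7 (-0.47, adjusted p = 0.000355), Osbpl10 (-1.26, adjusted p = 0.00138) and Vapa (-0.30, adjusted p = 0.000811), which encodes the reticulum protein to which many of the family bind. Osbp just missed under library total scaling (adjusted p = 0.0505). Under that scaling Osbpl8, Osbpl9 and Vapb were called higher, each by at most 0.25, and Osbpl9 also under upper quartile scaling. Per kilobase of annotated exon, mutant Osbpl5 at 6.28 CPM per kb stood beside Osbpl8 at 6.61 and below Osbp at 31.7 CPM per kb.

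Rpp25 encodes a subunit of RNase P, which trims the 5′ ends of precursor tRNAs, and of the related RNase MRP. In human cells its protein pairs with Rpp20, encoded in the mouse by Pop7, to bind the RNA of the enzyme. Rpp25 had 10 and 6 counts in controls against 1003 and 590 in mutants. The levels were 0.391 and 0.275 CPM in the controls and 37.9 and 37.5 CPM in the mutants. The ratio of the first to the second mutant library was 1.01. On the log2 scale the fitted fold change was 6.78 ± 0.16 (SE), with a ratio of 112 (95% counting interval 68.6 to 196). The gene is short, with 1 annotated transcript at chr9:57504026-57505448 on the plus strand (GRCm38), 1423 bases in all.

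The other subunits of the enzyme had reads in the control cells already. Of 9 other subunit genes, all tested, 5 were lower, 1 was higher and 3 did not pass, with a median log2 fold change of -0.16, where 29.2% of all genes tested were lower. Over the 12 alternatives 4 or 5 of the 9 were lower. The partner gene Pop7 went from 83.5 ± 1.09 to 66.3 ± 3.10 CPM (-0.33 ± 0.06, adjusted p = 0.000162). Pop1, which encodes the largest protein subunit, went from 153 ± 4.70 to 118 ± 0.149 CPM (-0.37 ± 0.05, adjusted p = 6.45e-06). Rpp21 (-0.38), Pop5 (-0.25) and Rpp14 (-0.14) were also lower, and Pop4 was higher (0.18, adjusted p = 0.0207). Rpp14 lost its call under 7 of the 12 alternatives, with an adjusted p of up to 0.984 under library total scaling, and Pop4 under 4, with up to 0.177 without control replicate 2. Per kilobase of exon, control Rpp25 had 0.234 CPM per kb against 77.3 for Pop7, and mutant Rpp25 had 26.5 CPM per kb, near Rpp38 at 27.5 and Pop4 at 27.7 and below Pop7 at 61.4.

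Ablim1 encodes an actin-binding protein with LIM domains and a villin headpiece, the fold by which the red cell protein dematin also holds actin. It had 14 and 12 counts in controls against 1098 and 697 in mutants. The controls were nearly equal, at 0.547 and 0.550 CPM, and the mutants stood at 41.5 and 44.3 CPM. The fitted log2 fold change was 6.27 ± 0.15 (SE), with a ratio of 77.5 (95% counting interval 52.7 to 119). Ablim1 is the longest of the 6 genes, at chr19:57032733-57314919 on the minus strand (GRCm38), with 21 annotated transcripts. An antisense transcript, 4930449E18Rik, overlaps it in the annotation and has no row in the count table; the use of strand in counting was not stated, so its reads may be among those of Ablim1.

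The related gene Ablim3 stayed at a few reads, with 0 and 0 counts in controls against 3 and 1 in mutants. Of 7 other genes of actin-binding LIM and headpiece proteins 3 were tested, and each passed, where 57.5% of all genes tested passed. Vill, which encodes a villin-like protein, went from 1.91 ± 0.233 to 12.7 ± 1.12 CPM (2.71 ± 0.16, adjusted p = 3.37e-10). The dematin gene, listed as Epb4.9, went from 255.5 ± 7.70 to 189 ± 8.24 CPM (-0.43 ± 0.05, adjusted p = 8.95e-07). Svil, the gene of supervillin, was lower by a small amount (-0.20 ± 0.06, adjusted p = 0.00591) and did not pass under upper quartile scaling (0.0733), library total scaling (0.371) or without mutant replicate 1 (0.0867). Per kilobase of exon the dematin gene still stood above mutant Ablim1, at 19.3 against 3.59 CPM per kb.

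Mpzl2 encodes a membrane protein with an immunoglobulin domain that mediates adhesion between epithelial cells and in the thymus. It had 13 and 12 counts in controls against 816 and 491 in mutants. The mutant libraries, at 30.8 and 31.2 CPM, differed from each other by far less than from the controls at 0.508 and 0.550 CPM. Its log2 fold change was 5.86 ± 0.16 (SE), with a ratio of 58.7 (95% counting interval 39.6 to 91.0). It lies at chr9:45039799-45054015 on the plus strand (GRCm38) and is overlapped on the other strand by Gm48840, an annotated locus with 3921 exon bases and no row in the count table. As for Ablim1, reads of the overlapping locus may be among those counted for Mpzl2.

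Most tested relatives of Mpzl2 rose as well. Of 8 other Mpzl and junctional adhesion genes 6 were tested, 5 were higher, 0 were lower and 1 did not pass. Among all genes tested, 28.3% were higher and 29.2% were lower. In this list 0 were lower at an unadjusted p under 0.05, with DESeq2 or with limma-voom. The 1 that did not pass was Cxadr, the gene of a virus receptor of tight junctions (0.38 ± 0.23, adjusted p = 0.172). The median log2 fold change of the tested 6 was 1.37; genes scarce in controls were tested only where the mutants expressed them, so this median can lean upward. Mpzl1 was the most abundant, at 45.5 ± 0.107 CPM in controls and 100.5 ± 1.66 CPM in mutants (1.14 ± 0.06, adjusted p = 7.12e-11). Mpzl3, whose protein is also an adhesion molecule, had 21 and 15 counts in controls against 124 and 74 in mutants (2.62 ± 0.23, adjusted p = 4.91e-08). The other risers were the junctional adhesion gene F11r (1.59, adjusted p = 5.22e-06), Esam (1.70, adjusted p = 4.68e-05), which is also an endothelial gene, and Jam3 (0.94, adjusted p = 0.0239). Jam3 rested on 20 and 14 against 43 and 16 counts and did not pass without mutant replicate 1 (0.401), without control replicates 1 and 2 in turn (0.0564 and 0.108) or with DESeq2 (0.236). Amica1 had no count in any library.

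Appl2 encodes an adaptor that sits on early endosomes, binds the GTPase RAB5 and links receptors to signalling. It had the most control reads of the 6 genes, with 23 and 18 counts, and 1126 and 675 counts in mutants. The levels were 0.899 and 0.825 CPM in controls and 42.5 and 42.9 CPM in mutants. The fitted log2 fold change was 5.62 ± 0.13 (SE), with a ratio of 49.3 (95% counting interval 36.2 to 69.0), the smallest of the 6. The gene lies at chr10:83600033-83648738 on the minus strand (GRCm38), with exons over 5949 bases.

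Its paralog Appl1, unlike Appl2, was expressed in controls, and it rose as well, from 21.5 ± 0.803 to 61.03 ± 2.43 CPM (1.51 ± 0.08, adjusted p = 6.3e-11). Per kilobase of exon the pair went from 0.145 (Appl2) and 2.46 (Appl1) CPM per kb in controls to 7.18 and 6.999 CPM per kb in mutants. The rest of the early endosome list moved little: with Appl1, 4 of 15 genes were higher, 4 were lower and 7 did not pass. The median log2 fold change of the list was 0.04. Among all genes tested, 28.3% were higher and 29.2% were lower. A pair of phosphatase genes whose proteins bind APPL1 were among the risers, Inpp5b (0.28, adjusted p = 7.89e-05) and Ocrl (0.24, adjusted p = 0.03). The other riser was the adiponectin receptor gene Adipor2 (0.21, adjusted p = 0.00074). Of the RAB5 genes, the abundant Rab5c was lower (-0.24, adjusted p = 0.000169) and Rab5a (-0.05) and Rab5b (0.59, adjusted p = 0.063) did not pass; Rab5b passed under 4 of 12 alternatives, with an adjusted p as low as 0.00919 without mutant replicate 2. The remaining falls were those of Rabgef1 (-0.31, adjusted p = 0.00142), which encodes an activator of RAB5, Gipc1 (-0.18, adjusted p = 0.0245) and Rab22a (-0.14, adjusted p = 0.0466). The calls of Ocrl, Gipc1 and Rab22a were lost under 5, 6 and 8 of 12 alternatives, where their adjusted p reached 0.424, 0.557 and 0.943. With library totals alone 9 genes of the list were higher and 2 lower.

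**Figure D1:**
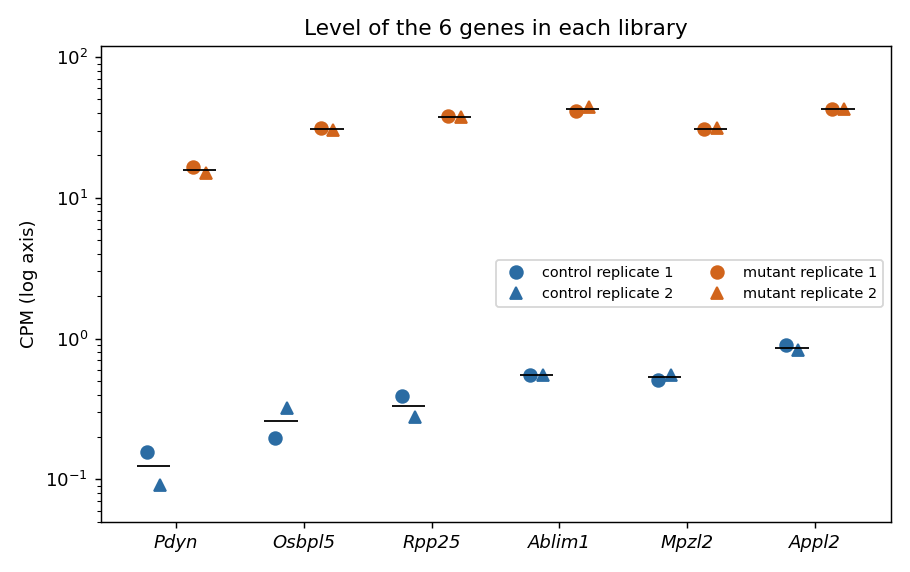
The level of each of the 6 genes in each library, in CPM on a log axis, with circles for replicate 1, triangles for replicate 2 and a bar at the mean of each group. Controls lie between 0.0917 and 0.899 CPM and mutants between 15.1 and 44.3 CPM, and the replicates of a group lie close together except for Pdyn, Osbpl5 and Rpp25 in controls.

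**Figure D2:**
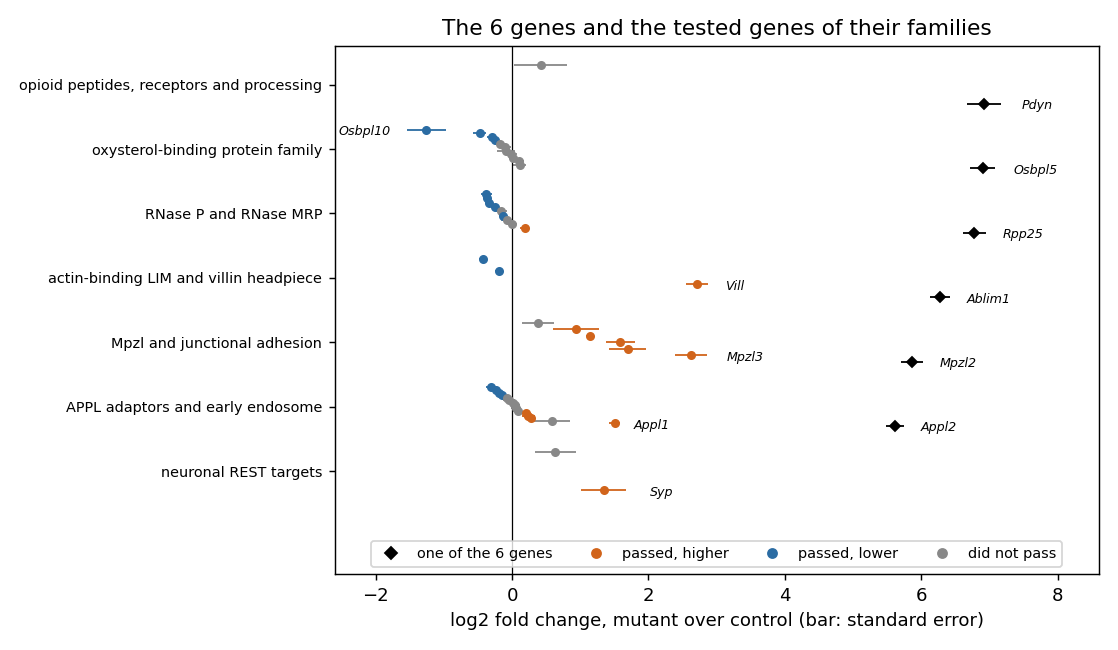
Log2 fold change of mutant over control with its standard error for the 6 genes (black diamonds) and for the tested genes of their lists (orange, passed and higher; blue, passed and lower; grey, did not pass). The standard errors were derived from the test's F value and are too narrow for the 6 genes. Each of the 6 genes, at 5.62 to 6.92, lies beyond every other tested gene of its list, of which the highest was Vill at 2.71. This follows in large part from how the 6 genes were chosen.

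The ratio of the first to the second mutant library ran from 0.936 (Ablim1) to 1.11 (Pdyn), and its 95% counting interval held 1 for all 6 genes. In the controls the ratio ran from 0.609 (Osbpl5) to 1.71 (Pdyn), with intervals that also held 1 but were as wide as 0.244 to 18.9 for Pdyn. These intervals cover counting error only, and similar replicates follow in part from how the genes were chosen. The lowest mutant library stood above the highest control library by 47.3-fold for Appl2 and by 96.4-fold for Pdyn, with the other genes between them. Over all genes tested, 39.5% had both mutant libraries above both controls, and for the 6 genes this follows from how they were chosen. In the authors' deposited table the log2 fold changes of the 6 genes ran from 5.76 (Appl2) to 7.12 (Pdyn). The values fitted here minus those of that table were between -0.202 (Pdyn) and -0.145 (Appl2), and the median over all shared genes was -0.136.

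Near silence in the controls differed by degree. The authors' deposited table carries a flag that was set in exactly those of its 13234 rows whose control counts summed to under 20. Pdyn, Osbpl5 and Rpp25, with 6, 12 and 16 control counts, carried it, and Mpzl2, Ablim1 and Appl2, with 25, 26 and 41, did not. Measured per kilobase of exon, the order of the control levels was Rpp25, Appl2, Mpzl2, Osbpl5, Ablim1 and Pdyn, and the ranges of the last 3, from 0.0318 to 0.0653 CPM per kb, overlapped. In the mutants the order was Rpp25 (26.5 CPM per kb), Appl2 (7.18), Osbpl5 (6.28), Pdyn (5.50), Mpzl2 (4.45) and Ablim1 (3.59), and no neighbours in it overlapped. Exon length was taken from the present annotation, not from the authors' gene models, so the order depends on it. By these levels mutant Rpp25 exceeded 80.8% of tested genes and the other 5 exceeded 38.5% to 52.3%, while in controls the 6 exceeded 2.21% to 11.7%. Together the 6 genes took 0.000257% and 0.00025% of control counts and 0.0211% and 0.021% of mutant counts.

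The 6 genes are not the whole set that meets such limits. With a ratio of mean CPM over 30 and at least 10 CPM in mutants, 18 of the genes tested qualified, or 0.137%, of which 12 were other genes. These were Csf2rb, Csf2rb2, Tec, 1700025G04Rik, Gng2, Rasal1, Tmem173, Kcnh2, Il10ra, Kcne3, Plekhg3 and Msrb3. The member nearest the limit was Appl2, with a ratio of mean CPM of 49.6. Just inside the limit lay the guanine nucleotide exchange factor gene Plekhg3 (32.3) and the methionine sulfoxide reductase gene Msrb3 (30.5), and just outside it the non-erythroid alpha spectrin gene Spna2 (29.1), Slc45a3 (26.1) and Cd276 (25.9). Spna2 was far more abundant than the 6 genes, with 167 and 122 counts in controls against 4402 and 2942 in mutants. Without the limit of 10 CPM, 52 genes had a ratio over 30.

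**Figure D3:**
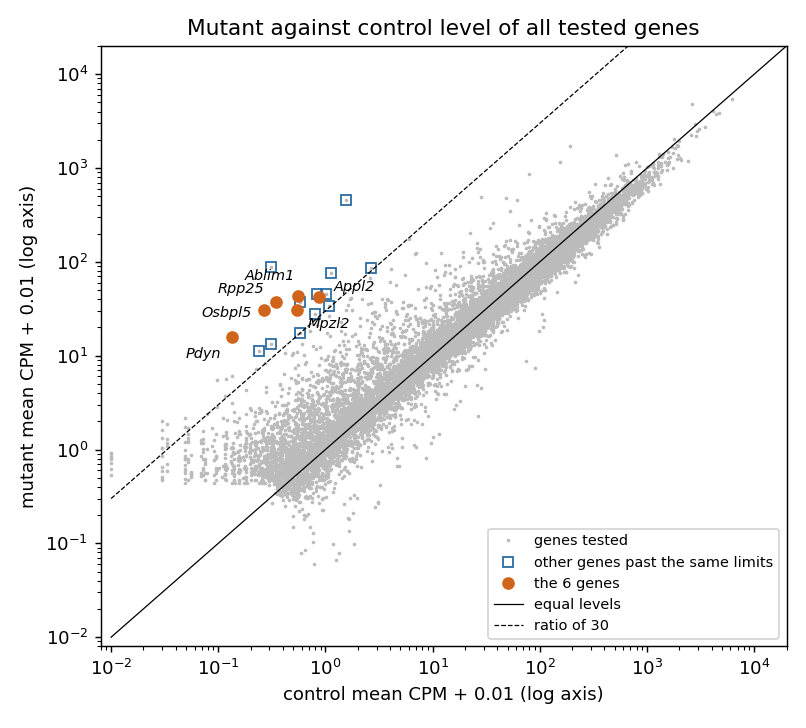
Mean CPM in mutants against mean CPM in controls for the 13140 genes tested, both on log axes after adding 0.01 CPM, with the 6 genes as filled circles, the 12 other genes past the same limits as open squares, a solid line at equal levels and a dashed line at a ratio of 30. The 6 genes lie above the dashed line at 0.124 to 0.862 CPM in controls and 15.9 to 42.9 CPM in mutants.

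Genes whose levels followed the same course over the 4 libraries were sought by the distance between log2(CPM + 1) values centred on each gene's mean. With 4 libraries in 2 groups, this measures little beyond the size of the difference on that scale. The added 1 CPM exceeds every control level of the 6 genes and shrinks their differences. A gene close by this distance can therefore have a much smaller fold change. The 6 genes were left out of the search and are compared with each other at the end. The closest other gene to Appl2 was Kcne3, a potassium channel subunit gene, at a distance of 0.0836, which had 73 and 53 counts in controls against 2226 and 1365 in mutants. Kcne3 and Spna2 were also the closest other genes to Osbpl5 (0.249 and 0.284) and to Ablim1 (0.282 and 0.225). Outside the 6, Mpzl2 was closest to Slc45a3 (0.182) and Kcne3 (0.235), Rpp25 to the G protein subunit gene Gng2 (0.244) and Spna2 (0.248), and Pdyn to Rogdi (0.171) and the interleukin 10 receptor gene Il10ra (0.183). Rogdi had 196 and 138 counts in controls against 3270 and 1966 in mutants. Its log2 fold change was 4.14, against 6.92 for Pdyn. Among the 6 genes themselves the distances ran from 0.124 (Rpp25 and Ablim1) to 0.958 (Pdyn and Rpp25). For Osbpl5, Rpp25, Ablim1 and Mpzl2 another of the 6 was closer than any gene in the search, which left out clone names. Examples are Osbpl5 and Appl2 at 0.187 and Mpzl2 and Appl2 at 0.179. The 6 were chosen on these same levels, so their closeness to each other follows in large part from that choice.

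Genes next to the 6 on the chromosome were examined as well. The pair of nearest protein-coding genes on each side of each of the 6 genes was taken from the GRCm38 annotation, 24 genes in all, of which 14 were too scarce to test. Among the 10 tested, 4 were higher, 2 were lower and 4 did not pass, with a median log2 fold change of 0.14. Of all genes tested, 28.3% were higher and 29.2% were lower. Each neighbour changed far less than the gene beside it, which follows in large part from how the 6 genes were chosen. The nearest neighbour was Mpzl3, which begins 1.17 kb beyond the end of Mpzl2 on the same strand and rose by 2.62. The gene listed as A230046K03Rik, 3.56 kb from Appl2 on the opposite strand, went from 37.8 ± 3.80 to 62.5 ± 0.151 CPM (0.73 ± 0.08, adjusted p = 5.43e-07). Sirpa, which encodes a myeloid receptor for CD47 and lies 54.3 kb from Pdyn, went from 3.77 ± 1.25 to 10.8 ± 1.98 CPM (1.47 ± 0.21, adjusted p = 8.34e-05). Scamp5, a gene of secretory vesicle membranes 36.0 kb from Rpp25, went from 1.44 ± 0.162 to 3.74 ± 0.108 CPM (1.37 ± 0.21, adjusted p = 3.55e-05).

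On the other side of Rpp25, at 15.8 kb, the respiratory chain gene Cox5a was slightly lower (-0.23 ± 0.06, adjusted p = 0.00364). Trub1, a pseudouridine synthase gene 138 kb from Ablim1, was also lower (-0.25 ± 0.06, adjusted p = 0.00275). Neither passed under library total scaling (adjusted p = 0.194 and 0.128), and Cox5a also missed without control replicate 1 (0.0671) and without mutant replicate 2 (0.0528). Stk35, 2310046O06Rik, Ppcdc and Fam160b1 did not pass. Ppcdc and Fam160b1 passed as higher under upper quartile scaling (adjusted p = 0.0319 and 0.0427) and library total scaling (0.00823 and 0.00815). No neighbour of Osbpl5 was abundant enough to test: Tnfrsf23, 2.89 kb away, had 0 and 2 counts in controls against 2 and 0 in mutants, Tnfrsf22 had 5 and 4 against 10 and 5, and Mrgprg and Mrgpre had none. Beside Mpzl2 the T cell receptor genes Cd3e and Cd3d had 0 control counts and at most 3 in a mutant library.

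**Figure D4:**
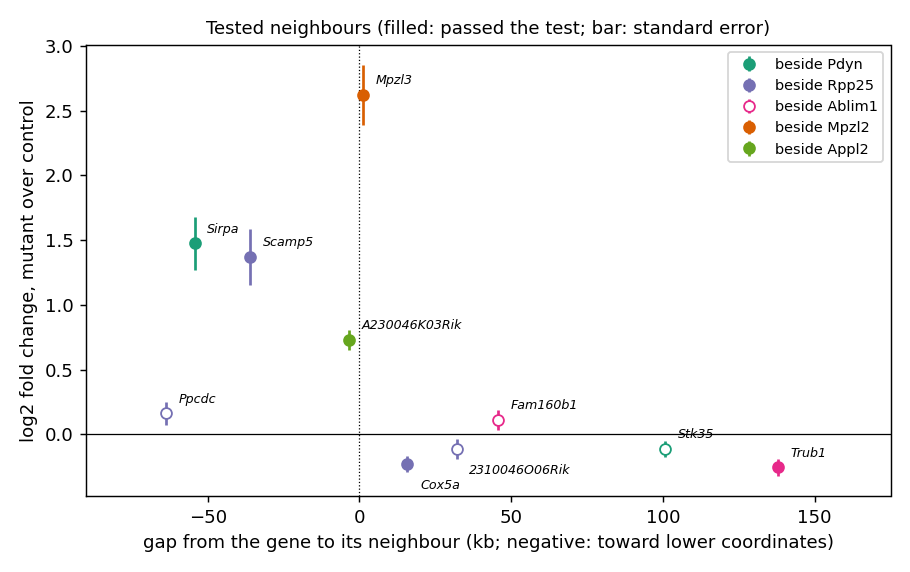
Log2 fold change of mutant over control, with its standard error (derived from the test's F value), for the 10 tested neighbours against their gap in kb from the gene beside them, coloured by that gene, with filled circles where the test passed. Mpzl3 at 2.62 is the highest, and the values run down to -0.25 for Trub1.

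Neuronal genes were looked at because Pdyn is a neuropeptide gene and CoREST was first known as a partner of REST. Of 20 genes known as REST targets in neurons 2 were expressed highly enough to test. Syp, the synaptophysin gene, had 15 and 11 counts in controls against 37 and 22 in mutants (1.34 ± 0.33, adjusted p = 0.00228), and with DESeq2 its adjusted p was 0.0644. Tubb3 did not pass (0.63 ± 0.30, adjusted p = 0.0795). The synaptic gene Snap25, the granin gene Scg2 and the neurofilament gene Nefl had no count in any library. Chga, the chromogranin A gene, went the other way, with 12 and 9 counts in controls against 0 and 0 in mutants, too few to test under the main filter. With no filter beyond 1 count, 2 genes of the list were lower and 1 was higher. The 20 genes together had 2.81 and 2.47 CPM in controls and 3.96 and 3.94 CPM in mutants, below the level of Pdyn alone in either mutant library.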

How the data were processed

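The deposited files are 1 table of counts, whole numbers per gene whose totals differ between libraries and which were read as raw, and 1 table of the authors' comparison that lists a log2 fold change, a p-value and flags for each gene, per the file headers. FastQC, Bowtie, edgeR and the mm9 build are named, per the submitters' processing notes, without versions. Strand use and the handling of multi-mapping reads are among the steps not given in the sources used here. The WT columns were matched to control samples through their numbers, which no label states outright. Of 35939 rows, 12 with NA values were dropped.

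edgeR 4.0.16 under R 4.3.3 was run on the rest (filterByExpr, TMM, estimateDisp, robust glmQLFit, glmQLFTest, two-sided), which was tested on simulated data. The 6 genes passed the filter through the mutant libraries and are left out of list counts. Members, lists, tests and the rule on which genes to name were chosen with earlier results of these data known. Named genes were the 6 members, list genes that passed or are close partners, all tested neighbours, the genes around the limits and the 2 closest in course to each member. The likeness search left out the 6 genes and clone names. List entries Rpp25l, Rpph1, Rmrp, Clmp and Map2 were not matched by symbol. Some list genes are not reported here and were left out of the counts. Positions and exon lengths are from GENCODE M21 and promoters from RefSeq, both GRCm38, while mm9 is the build in the submitters' notes, so no coordinates were joined across builds. Counting intervals are exact binomial 95% intervals and, like the floor of 3 counts, cover counting error only. Alternatives were RLE, upper quartile and library total scaling, a filter of 1 count or of CPM above 1 in 2 libraries, DESeq2 1.42.0, limma-voom (limma 3.58.1), the replicate number as a block, and leaving out every library once, where the lone library of a group is assumed to vary like the others.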

Additional observations from a re-analysis of the deposited data

How the results depend on the processing

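The fitted log2 fold changes of the 6 genes kept their direction under all 12 alternatives and ran from 6.61 to 7.35 for Pdyn, 6.56 to 7.25 for Osbpl5, 6.56 to 7.06 for Rpp25, 6.23 to 6.41 for Ablim1, 5.79 to 6.00 for Mpzl2 and 5.55 to 5.75 for Appl2; for Pdyn, Osbpl5 and Rpp25 both ends came from leaving out a control library. Of 32 list genes and neighbours called, 21 were called under every alternative that tested them and 11 lost the call under at least 1; of 24 not passing, 13 passed under at least 1. None that was called changed direction. With library totals alone, 2553 genes in all were lower, 3 oxysterol-binding family genes, 9 early endosome genes and 2 neuronal genes were higher, and 1 headpiece gene, 2 early endosome genes and 0 neighbours were lower. With upper quartile scaling, 1 oxysterol-binding family gene was higher, and 1 headpiece gene and 2 early endosome genes were lower. With no filter beyond 1 count, 1 opioid gene was higher, 0 RNase P genes were higher and 2 neuronal genes were lower. With DESeq2, 0 RNase P genes and 0 neuronal genes were higher and 2 early endosome genes were lower. When each library was left out in turn, the counts ran from 0 to 1 for oxysterol-binding family genes higher and for RNase P genes higher, from 1 to 2 for headpiece genes lower, from 2 to 3 for early endosome genes lower, from 0 to 1 for neuronal genes lower and from 1 to 2 for neighbours lower. With the replicate number as a block, 4135 genes were higher and 4267 lower, and Osbpl2 and Rab5b passed (adjusted p = 0.0182 and 0.0374); it ended no call named here. The deviations of same-numbered libraries had a weak correlation (0.119 over tested genes), and with 2 numbers this does not show that the numbers pair the samples. Depth limits the control levels most, since 6 to 41 control reads stand under each ratio.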
